A study of Mus musculus with 12 samples.

Results

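The interleukin-1 (IL-1) family was examined in mouse pancreatic stellate cells (PSCs), the fibroblast precursors of the pancreas, after culture alone or together with tumour cells and macrophages. The 9 members were chosen by name, as the ligands Il1a, Il1b, Il18 and Il33, the soluble antagonists Il1rn and Il18bp, and the receptor chains Il1r1, Il1rap and Il1rl1. All 9 were found among the 39179 genes of the count table. The cells were C57BL/6 PSCs, an SV40-immortalised line that is 1 clone, labelled with lentiviral mCherry under the SFFV promoter. They were grown for 72 h in mono-culture (mono-PSCs), in a 2-way culture with EGFP-labelled pancreatic cancer cells (2W-PSCs), or in a 3-way culture with those cancer cells and TagBFP-labelled macrophages (3W-PSCs). The cancer cells (PCCs) were a mouse pancreatic cancer line and the macrophages (MØs) were RAW264.7 cells, a leukaemic macrophage line. The total number of cells seeded was the same in each culture, so co-cultures started with fewer PSCs. PSCs were recovered by sorting cells positive for mCherry and negative for EGFP and TagBFP, a gate meant to leave out the partner cells, and 4 libraries were sequenced per culture.

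IL-1 family cytokines are alarm signals of damaged or infected tissue. IL-1α and IL-1β bind the receptor IL1R1, which then recruits the accessory chain IL1RAP and, through the adaptor MYD88 and the IRAK kinases, activates NF-κB and the stress kinases. IL-33 signals in the same way through IL1RL1 (also called ST2) and the same accessory chain, whereas IL-18 uses IL18R1 with IL18RAP. The family is held in check by the antagonist IL1RN, which occupies IL1R1 without signalling, and by IL18BP, which captures free IL-18. In pancreatic cancer, tumour-derived IL-1 is known as an inducer of inflammatory fibroblasts.

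Expression was measured by 3′ mRNA sequencing, in which a transcript gives about 1 fragment from its 3′ end, so counts carry no length correction. Levels are given as CPM, the counts of a gene relative to the library's total, after TMM scaling across the 12 libraries. Differences were tested with edgeR's quasi-likelihood test over all genes of a comparison, and a gene was called at an adjusted p under 0.05. The libraries held 4561817 to 8093368 counts, at which 3 counts correspond to 0.348 to 0.737 CPM. Library 2 of the 2W-PSCs stood apart, with Spearman correlations of 0.858 to 0.920 with the other libraries of its culture, whereas all other pairs within a culture lay between 0.948 and 0.987. Since the labels do not say how the replicate cultures were set up, p-values measure only the spread between these libraries.

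Fibroblast markers, 16 genes in all, had a summed CPM of 9541 to 13106 for the mono-, 13172 to 20373 for the 2W- and 7983 to 9395 for the 3W-PSCs. No marker was at 0 throughout a culture, but up to 2 were at 0 in a single library. Between 3W- and 2W-PSCs, 7 of 14 tested were called lower and 2 higher, where 4.95% of all genes were lower and 5.73% higher. Markers of the partner cell types were also detected in the sorted co-cultures, and whether these reads came from partner cells was not tested. The 16 epithelial markers had a summed CPM of 1.56 to 3.48 for the mono-, 76.0 to 151.7 for the 2W- and 56.4 to 95.1 for the 3W-PSCs. Of these, 5 were at 0 throughout mono-PSCs, 6 throughout 2W-PSCs (Epcam, Cldn4, Cldn7, Esrp1, Ehf and St14) and 2 throughout 3W-PSCs (Cldn4 and Ehf). The 24 macrophage markers had a summed CPM of 2.78 to 9.71 for the mono-, 4.90 to 11.8 for the 2W- and 29.3 to 89.4 for the 3W-PSCs. Of these, 14 were at 0 throughout mono-PSCs, 14 throughout 2W-PSCs and 2 (Lyz1 and Emr1, the F4/80 antigen) throughout 3W-PSCs.

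The promoters of 4 members, which lie on 4 chromosomes, are shown because these genes were each called higher in 3W- than in mono-PSCs. Each line gives the 250 bases before an annotated RefSeq start (build GRCm38.p6), with capitals marking matches to the motifs searched. The intervals are chr1:40429320-40429569 and chr1:40439379-40439628 on the plus strand for the upstream and downstream starts of Il1rl1, chr16:26581455-26581704 on the plus strand for Il1rap, chr7:102018233-102018482 on the minus strand for Il18bp, and chr2:24336610-24336859 on the plus strand for the first start of Il1rn.
Il1rl1 upstream start: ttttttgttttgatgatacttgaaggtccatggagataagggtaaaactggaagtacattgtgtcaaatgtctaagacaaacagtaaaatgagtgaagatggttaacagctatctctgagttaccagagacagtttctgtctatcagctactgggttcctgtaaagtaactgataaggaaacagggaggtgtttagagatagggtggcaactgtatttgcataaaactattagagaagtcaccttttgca
Il1rl1 downstream start: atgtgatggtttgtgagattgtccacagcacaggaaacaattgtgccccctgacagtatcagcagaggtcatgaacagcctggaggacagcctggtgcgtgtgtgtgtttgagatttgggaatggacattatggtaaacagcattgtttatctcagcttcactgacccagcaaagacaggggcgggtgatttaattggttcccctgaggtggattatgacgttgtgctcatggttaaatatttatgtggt
Il1rap: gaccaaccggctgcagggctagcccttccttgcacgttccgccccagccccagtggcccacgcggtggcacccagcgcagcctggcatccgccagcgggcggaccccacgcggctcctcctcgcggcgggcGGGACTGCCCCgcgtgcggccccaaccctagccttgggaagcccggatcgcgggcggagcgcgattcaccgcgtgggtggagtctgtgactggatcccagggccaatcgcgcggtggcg
Il18bp: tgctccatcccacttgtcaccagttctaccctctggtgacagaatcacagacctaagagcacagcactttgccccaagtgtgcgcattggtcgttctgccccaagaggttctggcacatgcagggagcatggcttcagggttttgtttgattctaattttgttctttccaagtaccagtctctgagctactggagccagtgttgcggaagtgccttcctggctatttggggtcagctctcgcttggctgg
Il1rn: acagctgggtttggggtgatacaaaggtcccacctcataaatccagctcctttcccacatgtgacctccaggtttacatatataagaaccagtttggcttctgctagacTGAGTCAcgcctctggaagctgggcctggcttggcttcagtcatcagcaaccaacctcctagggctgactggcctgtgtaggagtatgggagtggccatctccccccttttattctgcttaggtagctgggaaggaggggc

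These windows were searched on both strands for an NF-κB motif, the STAT motif TTCNNNGAA, the interferon-regulatory motif GAAANNGAA and the AP-1 motif TGANTCA. Among 32851 RefSeq promoters of this length, 23.2% held the NF-κB motif, 7.02% the STAT motif, 7.13% the interferon-regulatory motif and 6.75% the AP-1 motif. The Il1rap window held a pair of NF-κB matches that overlap each other, and the Il1rn window held 1 AP-1 match. An NF-κB match also lay 51 to 42 bases before another annotated start of Il1rn, in a window not shown. No match to these motifs was found before either start of Il1rl1 or before Il18bp, Il18, Il33 or Il1b. The matches are descriptions of letters and not of bound sites.

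Of the receptor chains, Il1rl1, the IL-33 receptor, had the largest fitted fold difference between cultures. The gene (GRCm38, chr1:40429570-40465415, plus strand) is annotated with 5 coding 3′ ends, and the secreted decoy and membrane forms are pooled in its count. The mono libraries read 4.17, 4.36, 3.78 and 1.80 CPM, the 2W libraries 3.22, 0.982, 9.37 and 2.72 CPM, and the 3W libraries 59.8, 81.3, 54.3 and 41.0 CPM. Every 3W library lay above every other library, whereas mono- and 2W-PSCs overlapped. The mean of 59.1 ± 16.8 CPM (SD, n = 4) in 3W-PSCs compared with 4.07 ± 3.66 in 2W-PSCs and 3.53 ± 1.18 in mono-PSCs. On the log2 scale Il1rl1 rose by 3.81 (SE 0.489, adjusted p = 0.00084, edgeR) from 2W- to 3W-PSCs and by 4.10 (SE 0.285, adjusted p = 1.7e-08) from mono- to 3W-PSCs. No change was called from mono- to 2W-PSCs (log2 fold change 0.26, SE 0.610, adjusted p = 0.999). In such sorted bulk samples, a change in RNA per cell and a change in the share of cells that carry a transcript cannot be told apart.

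The rise of Il1rl1 coincided with the rise of the macrophage markers, and the part of these markers in it was not tested. Within 3W-PSCs, library 4 had the highest summed macrophage markers, 89.4 CPM, and the lowest Il1rl1 level, 41.0 CPM. Library 2 had the lowest summed macrophage markers, 29.3 CPM, and the highest Il1rl1 level, 81.3 CPM. Single markers did not share 1 order. Lyz2 was highest in library 4, at 13.9 CPM, and Csf1r in library 2, at 3.13 CPM. Cybb read 8.37, 8.48, 4.07 and 4.28 CPM in libraries 1 to 4.

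**Figure D1:**
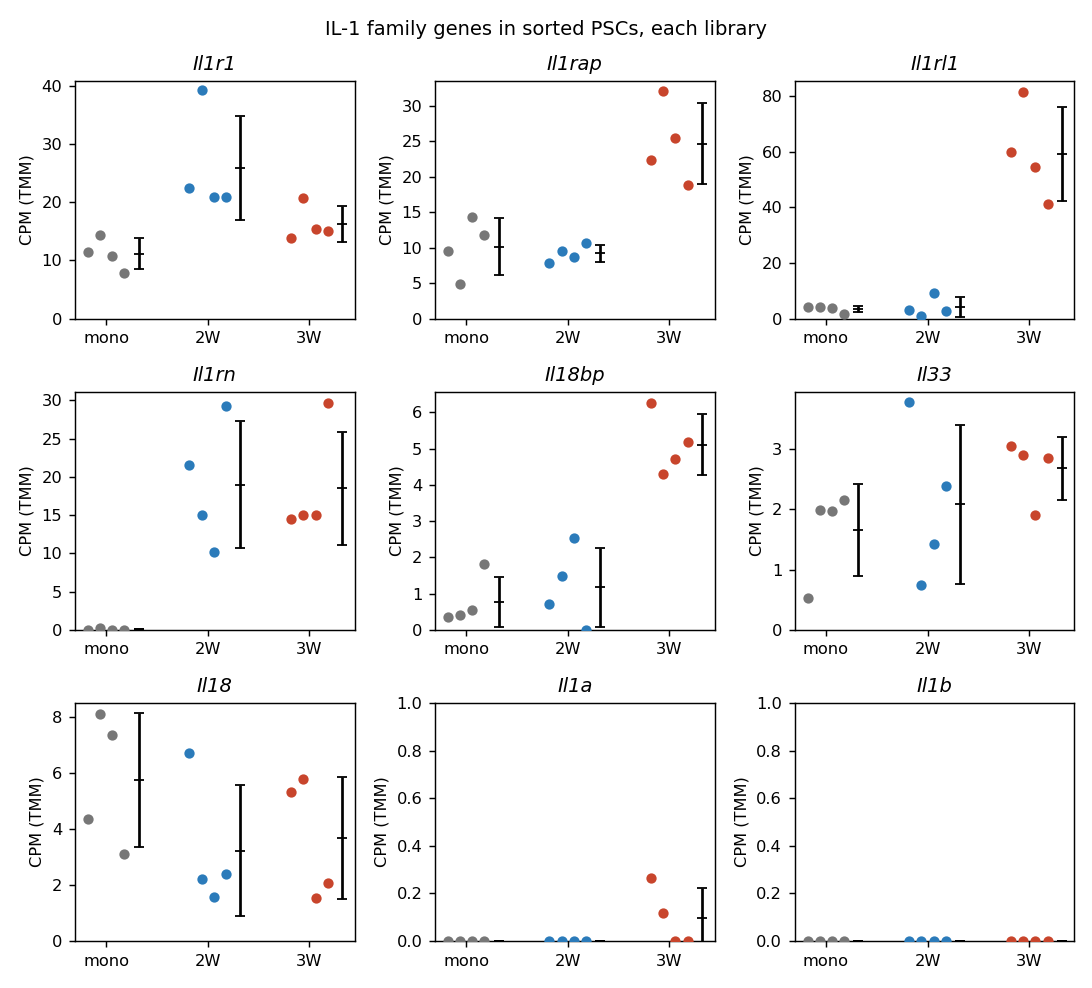
CPM after TMM scaling of the 9 IL-1 family genes in each of the 12 sorted PSC libraries, with points for libraries and bars for mean ± SD of the 4 libraries per culture. Il1rl1, Il1rap and Il18bp lie above all other libraries in 3W-PSCs, Il1rn is near 0 in mono-PSCs and present in both co-cultures, and Il1b has no count.

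Il1rap, the accessory chain that the IL-1 and IL-33 receptors share, also rose upon addition of MØs. The gene spans chr16:26581704-26730117 on the plus strand and has 4 coding 3′ ends, so its count pools membrane and secreted forms, and 552 bases of its exons overlap the antisense gene Gm20319. Mono-PSCs had 9.56, 4.95, 14.4 and 11.8 CPM, 2W-PSCs had 7.85, 9.58, 8.73 and 10.7 CPM, and 3W-PSCs had 22.3, 32.2, 25.4 and 18.8 CPM. The 3W libraries again lay above all others, and the mono- and 2W-PSC ranges overlapped. Mean levels were 24.7 ± 5.67 CPM (3W), 9.21 ± 1.22 CPM (2W) and 10.2 ± 4.00 CPM (mono; SD, n = 4 for each culture). The log2 increase was 1.42 (SE 0.234, adjusted p = 0.0038, edgeR) against 2W-PSCs and 1.26 (SE 0.280, adjusted p = 0.0028) against mono-PSCs. The difference of 2W- from mono-PSCs was -0.13 (SE 0.346, adjusted p = 0.999).

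Il1r1, the signalling receptor of IL-1α and IL-1β (chr1:40225080-40317257, plus strand), followed a different order, with its highest levels in 2W-PSCs. The mono libraries stood at 11.5, 14.5, 10.8 and 7.93 CPM, the 2W libraries at 22.4, 39.3, 20.95 and 20.92 CPM, and the 3W libraries at 14.0, 20.78, 15.4 and 15.0 CPM. The 2W libraries did not overlap those of either other culture, although the lowest 2W library (20.92 CPM) and the highest 3W library (20.78 CPM) were close, and mono- and 3W-PSCs overlapped. None of the differences in Il1r1 was called by edgeR. The log2 difference was 1.24 (SE 0.298, adjusted p = 0.0875) for 2W- against mono-PSCs, -0.66 (SE 0.258, adjusted p = 0.128) for 3W- against 2W-PSCs and 0.55 (SE 0.244, adjusted p = 0.106) for 3W- against mono-PSCs. For 2W- against mono-PSCs, 3 of 15 alternative fits called the increase, with adjusted p-values of 0.0137 to 0.275 over all of them. In a two-sided exact permutation test of the mean CPM, 2W-PSCs differed from mono-PSCs and from 3W-PSCs with p = 0.0286 each, the smallest value that 4 against 4 libraries allow. Without TMM scaling the 2W and 3W libraries gave p = 0.0857 in that exact test. The highest Il1r1 level, 39.3 CPM, came from the 2W library that stood apart.

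Across the 7 members tested in each 3W comparison and the 6 tested for 2W- against mono-PSCs, increases predominated over decreases among the calls. For 3W- against 2W-PSCs, 2 of 7 members were called higher (Il1rl1 and Il1rap) and 0 lower, where 5.73% of 11513 genes were higher and 4.95% lower. For 3W- against mono-PSCs, 4 of 7 were called higher (Il1rl1, Il1rap, Il1rn and Il18bp) and 0 lower, where 13.4% of 11551 genes were higher and 13.0% lower. For 2W- against mono-PSCs, 1 of 6 was called higher (Il1rn) and 0 lower, where 0.839% of 11199 genes were higher and 0.152% lower. The median log2 fold change of the tested members was 0.32, 1.26 and 0.32 in these comparisons in turn, beside 0.0023, 0.0116 and 0.0195 for all genes tested. A lower level at an unadjusted p under 0.05 was found for 1 member (Il1r1, 3W- against 2W-PSCs), and DESeq2 called 0 members lower in any comparison. Il1a and Il1b were too low to be tested in any comparison and Il18bp was too low for 2W- against mono-PSCs. Against mono-PSCs, Il1rn passed the filter on low counts through the co-cultures alone, and Il18bp passed in the 3W comparisons through 3W-PSCs alone. A difference of these genes was thus favoured by the filter, and the counts and medians over the tested members are descriptions only. These comparisons share libraries in pairs and are therefore not independent of each other.

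**Figure D2:**
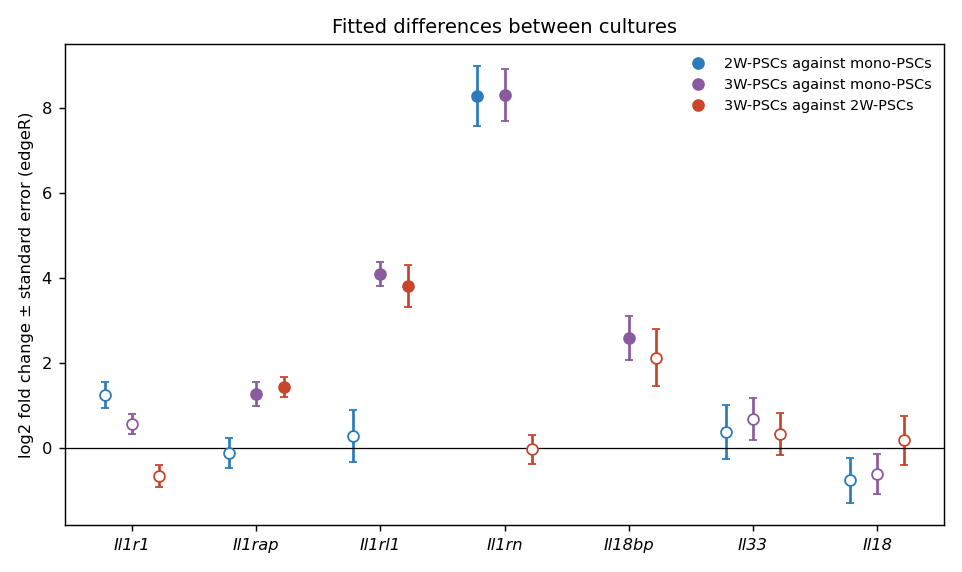
Log2 fold changes with standard errors from edgeR for the 7 members tested, with filled points called at an adjusted p under 0.05 and open points not called. Il1rl1 and Il1rap are called in both 3W comparisons and Il1rn against mono-PSCs only, where its fitted size depends on the prior count because mono-PSCs held a single count.

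Among the soluble inhibitors, Il1rn, the IL-1 receptor antagonist (chr2:24336853-24351494, plus strand), was near 0 in mono-PSCs and present in both co-cultures. Mono-PSCs held 0, 1, 0 and 0 counts. The 2W libraries reached 21.6, 15.0, 10.2 and 29.2 CPM and the 3W libraries 14.5, 15.0, 15.0 and 29.6 CPM. The co-cultures overlapped each other and neither overlapped mono-PSCs. Means of 19.0 ± 8.28 CPM (2W) and 18.5 ± 7.38 CPM (3W) were obtained (SD, n = 4 for each culture). Summed over libraries, the ratio to mono-PSCs was 479.6 for 2W-PSCs (95% exact interval 85.6 to 18982.8, counting error only) and 454 for 3W-PSCs (81.2 to 17980.3). Both increases were called by edgeR (adjusted p = 7.26e-05 for 2W-PSCs and 2.91e-08 for 3W-PSCs), whereas 3W- and 2W-PSCs differed by -0.04 on the log2 scale (SE 0.349, adjusted p = 0.953).

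Il1rn and the epithelial markers were both near 0 in mono-PSCs and present in the co-cultures, and the part of these markers in the Il1rn level was not tested. The 7 epithelial markers tested in 3W-PSCs had 0 to 7 counts in each mono library and passed the filter through the co-cultures. Between 3W- and 2W-PSCs, 0 of 7 was called by edgeR, where 5.73% of all genes were higher and 4.95% lower in 3W-PSCs. At an unadjusted p under 0.05, 1 was higher and 2 were lower. DESeq2 called 1 lower, and edgeR called 2 lower without library 2 and 1 lower without library 3 of the 2W-PSCs. The keratin gene Krt18 averaged 0.0945 ± 0.109 CPM (mono), 37.3 ± 10.5 CPM (2W) and 23.2 ± 6.73 CPM (3W; SD, n = 4 for each culture). The library with the highest Il1rn level was library 4 in both co-cultures, which also had the highest summed epithelial markers (151.7 CPM for the 2W and 95.1 CPM for the 3W library). In 2W-PSCs the libraries had the same order in both measures. In 3W-PSCs they did not, since libraries 1, 2 and 3 had summed epithelial markers of 79.2, 62.5 and 56.4 CPM and Il1rn levels of 14.5, 15.0 and 15.0 CPM. The mean of the epithelial sum was 105 ± 33.4 CPM (2W) and 73.3 ± 17.5 CPM (3W; SD, n = 4 for each culture). Relative to the summed epithelial markers, Il1rn amounted to 13.4 to 20.5% (2W) and 18.3 to 31.1% (3W).

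**Figure D3:**
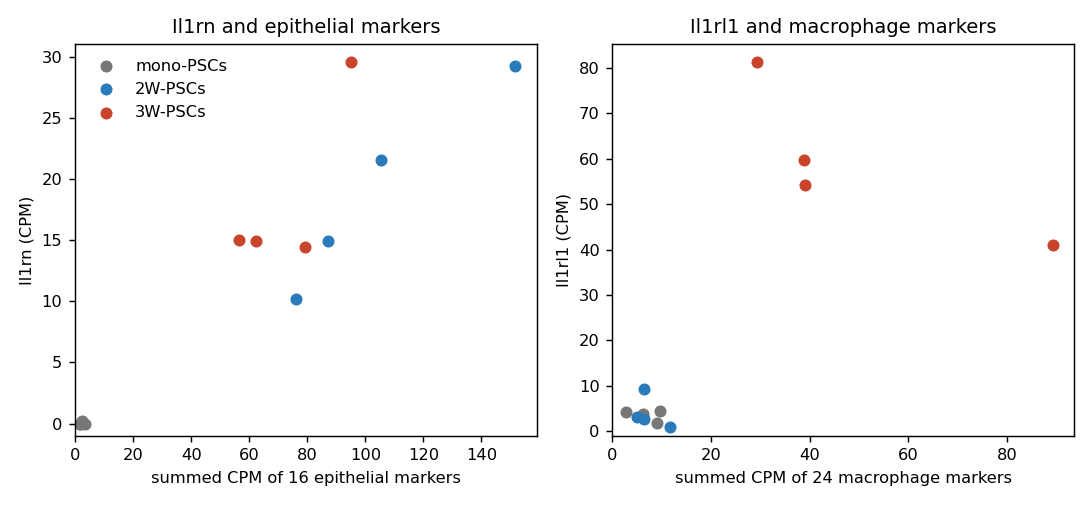
Left, Il1rn (CPM) against the summed CPM of 16 epithelial markers, and right, Il1rl1 (CPM) against the summed CPM of 24 macrophage markers, with 1 point per library and colours for cultures. Il1rn is near 0 in the mono libraries, where the epithelial markers sum to at most 3.48 CPM. The 3W library with the highest macrophage marker sum, 89.4 CPM, has the lowest Il1rl1 level of that culture, 41.0 CPM, but single macrophage markers did not share 1 order.

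Il18bp, the secreted IL-18 trap (chr7:102014885-102018690, minus strand, with 80 exon bases antisense to Numa1), was highest in 3W-PSCs. The counts were 2, 2, 3 and 15 in mono-PSCs, 5, 6, 16 and 0 in 2W-PSCs, and 47, 37, 37 and 40 in 3W-PSCs. In CPM the 3W libraries reached 6.25, 4.30, 4.71 and 5.19, against at most 1.80 in mono-PSCs and 2.54 in 2W-PSCs, so 3W-PSCs overlapped neither other culture. The increase over mono-PSCs was called (log2 fold change 2.58, SE 0.522, adjusted p = 0.00138, edgeR). The difference from 2W-PSCs was 2.12 (SE 0.681) and was not called (adjusted p = 0.0714), and 3 of 14 alternative fits called it, with adjusted p-values of 0.0160 to 0.171. Those were DESeq2 and the fits without library 2 (adjusted p = 0.0315) or library 3 (0.0288) of the 2W-PSCs. The exact permutation test gave p = 0.0286 for 3W-PSCs against either other culture and p = 0.6 for 2W- against mono-PSCs.

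The ligand genes were low or not detected in every culture, and none of them was called in any comparison. Il1b (chr2:129364570-129371139, minus strand) had 0 counts in all 12 libraries, which allows at most 0.348 to 0.737 CPM per library at 3 counts. Il1a (chr2:129299610-129309972, minus strand) had 0 counts in mono- and 2W-PSCs and 2, 1, 0 and 0 counts in 3W-PSCs, below that limit in each library. Neither could be compared between cultures at this depth.

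Il33, the alarmin that IL1RL1 binds (chr19:29925114-29960718, plus strand), was detected at low levels in all libraries. The mono libraries gave 0.522, 1.98, 1.98 and 2.16 CPM, the 2W libraries 3.78, 0.737, 1.43 and 2.40 CPM and the 3W libraries 3.06, 2.90, 1.91 and 2.85 CPM. The cultures overlapped, and no difference was called (log2 fold change 0.67, SE 0.501, adjusted p = 0.345 for 3W- against mono-PSCs; 0.32, SE 0.501, adjusted p = 0.734 against 2W-PSCs). For 2W- against mono-PSCs the difference was 0.37 (SE 0.631, adjusted p = 0.999).

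Il18, an inducer of interferon-γ in lymphocytes (chr9:50554827-50581840, plus strand), was measured at 4.35, 8.13, 7.38 and 3.12 CPM in mono-PSCs. The 2W libraries had 6.73, 2.21, 1.59 and 2.40 CPM and the 3W libraries 5.32, 5.80, 1.53 and 2.08 CPM. The ranges overlapped between all cultures. The log2 differences were -0.62 (SE 0.462, adjusted p = 0.342, edgeR) for 3W- against mono-PSCs, -0.78 (SE 0.532, adjusted p = 0.929) for 2W- against mono-PSCs and 0.17 (SE 0.582, adjusted p = 0.888) for 3W- against 2W-PSCs, none of which was called.

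The table held 12 other ligands and receptors of the family, most of them without reads. Il18rap, the signalling chain of the IL-18 receptor (chr1:40515362-40551705, plus strand), read 0.522, 0.396, 1.62 and 1.68 CPM in the mono libraries, 4.76, 5.40, 3.02 and 2.08 CPM in the 2W libraries and 8.37, 14.7, 8.90 and 10.1 CPM in the 3W libraries. The 3 cultures did not overlap and were ordered mono, 2W, 3W. The mono libraries held 3, 2, 9 and 14 counts. Against mono-PSCs the gene passed the filter on low counts through the co-cultures alone, so a difference from mono-PSCs was favoured by the filter. Il18rap rose by 1.48 on the log2 scale from 2W- to 3W-PSCs (SE 0.360, adjusted p = 0.0256, edgeR) and by 3.24 from mono- to 3W-PSCs (SE 0.435, adjusted p = 3.13e-05), and the difference of 1.81 between 2W- and mono-PSCs was not called (SE 0.608, adjusted p = 0.328). The first of these calls was lost in 4 of 15 alternative fits, those without library 1, 2 or 4 of the 3W-PSCs (adjusted p = 0.0526, 0.107 and 0.0637) or library 4 of the 2W-PSCs (0.0702). Il18r1, the ligand-binding chain of the same receptor, had 0 counts in all 12 libraries.

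Sigirr, an inhibitory receptor of the family, had 3, 0, 0 and 0 counts in mono-PSCs, 29, 7, 16 and 21 in 2W-PSCs and 9, 13, 6 and 20 in 3W-PSCs. Ratios to mono-PSCs were taken from counts summed over libraries, relative to the summed TMM-scaled library sizes. They were 25.3 in 2W-PSCs (95% exact interval 8.31 to 125.3, counting error only) and 12.5 in 3W-PSCs (4.01 to 62.5). For 3W- against 2W-PSCs the log2 difference of Sigirr was -0.96 (SE 0.497, adjusted p = 0.25, edgeR). Il1r2, the decoy receptor of IL-1, had 9 counts in 1 mono library and 3 in 1 3W library. Il1rapl1, a synaptic relative of the accessory chain, had 4 to 10 counts in the mono libraries, 7, 1, 0 and 0 in 2W-PSCs and 0, 0, 1 and 0 in 3W-PSCs. The IL-36 receptor Il1rl2, Il1rapl2 and the ligands listed as Il1f5, Il1f6, Il1f8, Il1f9 and Il1f10 had 0 counts throughout.

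The receptor genes Il1r2, Il1r1, Il1rl2, Il1rl1, Il18r1 and Il18rap lie next to each other on chromosome 1, all read from the plus strand. Neighbours in this cluster differed in level and in their order over cultures. Il1rl1 ends at 40465415 and Il18r1, which had no count, begins at 40465552. In the annotation, no 75-base window of the last 500 bases of any member was shared in sequence with another annotated gene.

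**Figure D4:**
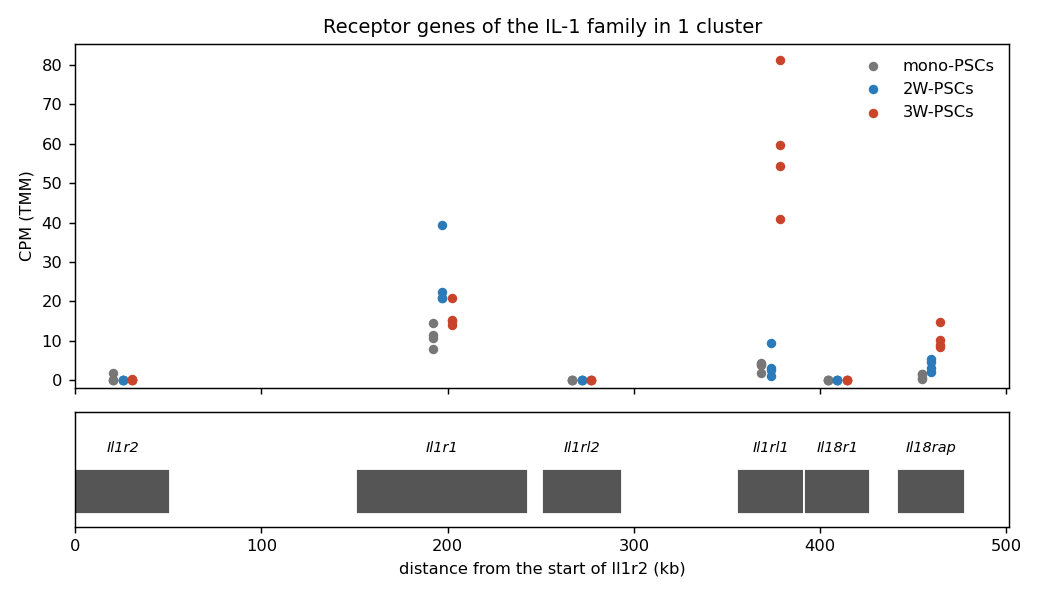
CPM of the IL-1 family receptor genes in each library (top) above their extents along chromosome 1, in kb from the start of Il1r2 (bottom). Il1rl1 and Il18rap are highest in 3W-PSCs, Il1r1 in 2W-PSCs, and Il18r1 between Il1rl1 and Il18rap has no count.

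Of 24 genes for signalling below the receptors, 23 were tested in each comparison. In 3W- against 2W-PSCs, 2 rose and 0 fell, with a median log2 fold change of 0.42. That share of 8.70% higher stood near the 5.73% of all genes. Without library 2 of the 2W-PSCs 4 rose and 1 fell, without library 3 of that culture 3 rose, and without any other library 1 rose. Myd88, the adaptor of the family's receptors, went from 26.9 ± 5.68 CPM (2W) to 60.1 ± 8.60 CPM (3W; SD, n = 4 for each culture; log2 fold change 1.15, SE 0.201, adjusted p = 0.00522, edgeR). Mapkapk2, a kinase activated by p38, rose from 73.8 ± 6.14 to 109.9 ± 12.9 CPM (0.57, SE 0.152, adjusted p = 0.0364), a call lost in 9 of 15 alternative fits, among them those without any 1 library except 2W library 2. In 3W- against mono-PSCs, 5 rose (21.7%, beside 13.4% of all genes) and 1 fell, with a median of 0.50. The number that rose was 3 with all 12 libraries in 1 fit, 4 without library 2 of the 3W-PSCs and 8 without library 1 of the mono-PSCs. Besides Myd88 (1.23, SE 0.181, adjusted p = 7.36e-05), the increases included the p38-activating kinase Map2k6 (1.82, SE 0.408, adjusted p = 0.00313) and Chuk, an IκB kinase (0.90, SE 0.244, adjusted p = 0.0108, or 0.0626 with all 12 libraries in 1 fit). Irak1bp1, an IRAK1-binding protein, fell by 0.65 (SE 0.166, adjusted p = 0.00721). In 2W- against mono-PSCs, 0 of 23 were called by edgeR (1 at an unadjusted p under 0.05) and 0 by DESeq2, with a median of -0.0033. Of all genes, edgeR called only 0.839% higher and 0.152% lower there, so 0 calls do not set this list apart.

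Of 14 genes for processing and release of IL-1 family ligands, 8 were tested in the 3W comparisons and 7 in the other. Casp4, the caspase that senses cytosolic lipopolysaccharide, averaged 2.08 ± 1.64 CPM (mono), 5.01 ± 1.81 CPM (2W) and 65.9 ± 13.2 CPM (3W; SD, n = 4 for each culture). Its log2 increase was 3.74 from 2W- to 3W-PSCs (SE 0.286, adjusted p = 4.01e-05, edgeR) and 5.07 from mono- to 3W-PSCs (SE 0.361, adjusted p = 2.07e-08). P2rx7, the ATP receptor upstream of the NLRP3 inflammasome, was tested only where 3W-PSCs were compared, since their counts alone brought it past the filter, and rose in both (2.40, SE 0.450, adjusted p = 0.00725 against 2W-PSCs). Capn2, a calpain subunit, was lower in 3W-PSCs (-0.93, SE 0.256, adjusted p = 0.0411 against 2W-PSCs, a call lost in 7 of 15 alternative fits, among them those without any 1 library except 2W libraries 2 and 3). The IL-1β-processing caspase Casp1 had at most 5 counts in a library, and the inflammasome adaptor Pycard at most 4. In 2W- against mono-PSCs, 0 of 7 were called by edgeR (1 at an unadjusted p under 0.05) and 0 by DESeq2. Here too, edgeR called only 0.839% of all genes higher and 0.152% lower.

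Of 30 genes known to respond to IL-1 in fibroblasts, 25 were tested in the 3W comparisons. In 3W- against 2W-PSCs 24 rose and 0 fell, with a median log2 fold change of 3.08, where 5.73% of all genes were higher. The number that rose was 21 with the replicate block, 19 without library 1, 20 without library 2 and 22 without library 4 of the 3W-PSCs, and 23 or 24 without any other library. In 3W- against mono-PSCs all 25 rose, with a median of 3.41, where 13.4% of all genes were higher. Of the 25 genes, 8 (Bcl3, Cxcl2, Il6, Lcn2, Lif, Mmp13, Tnfaip3 and Tnip3) passed the filter on low counts through 3W-PSCs alone, so that their rise was favoured by the filter. Of the other 17, which were also testable between 2W- and mono-PSCs, 16 rose against 2W-PSCs (median 1.85) and 17 against mono-PSCs (median 2.52). These genes also respond to other inflammatory signals such as TNF. The list was chosen with earlier results of these data known, so its counts and medians are descriptions only. The chemokine Ccl2 averaged 27.3 ± 10.2 CPM (mono), 26.6 ± 15.6 CPM (2W) and 1204 ± 231 CPM (3W; SD, n = 4 for each culture). It rose by 5.49 on the log2 scale (against 2W-PSCs, SE 0.456, adjusted p = 5.83e-05, edgeR). The acute-phase gene Saa3 (6.58, SE 0.478, adjusted p = 3.25e-05) and the chemokine Ccl7 (5.56, SE 0.370, adjusted p = 1.79e-05) rose likewise from 2W- to 3W-PSCs. Nfkbia, which encodes the inhibitor IκBα, rose by 3.26 from mono- to 3W-PSCs (SE 0.190, adjusted p = 2.01e-09). For 2W- against mono-PSCs, 1 of 17 tested genes was called, where 0.839% of all genes were higher and 0.152% lower. The median was 0.20. The called gene was the matrix metalloproteinase Mmp3, which went from 0.192 ± 0.281 to 5.91 ± 1.92 CPM (4.99, SE 0.811, adjusted p = 0.00883, edgeR). Mmp3 had 1, 3, 0 and 0 counts in mono-PSCs and passed the filter here through 2W-PSCs alone, so its rise was favoured by the filter.

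**Figure D5:**
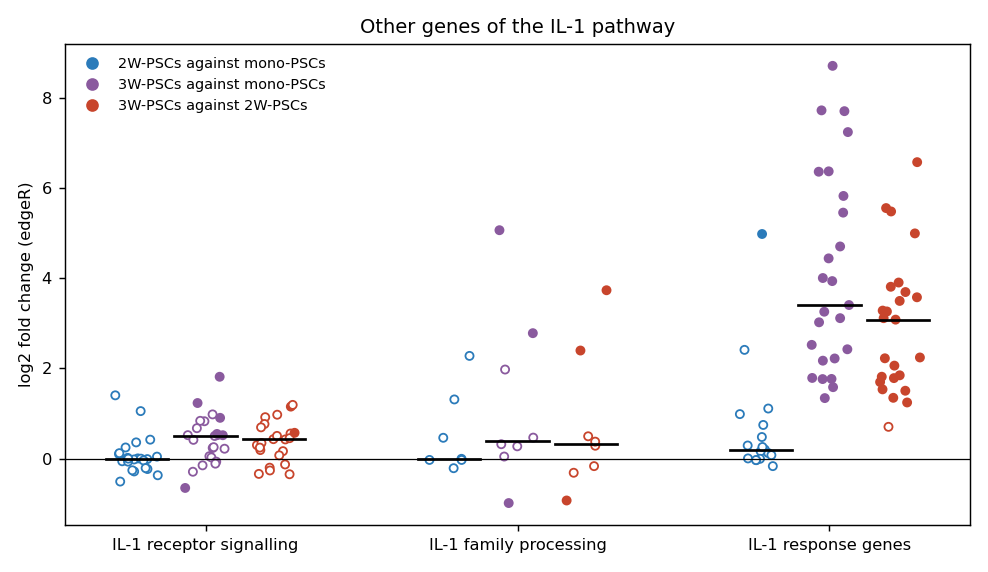
Log2 fold changes (edgeR) of the tested genes for IL-1 receptor signalling, IL-1 family processing and the response to IL-1 in each comparison, with filled points called and black bars at medians. The response genes have medians of 3.08 and 3.41 in the 3W comparisons and 0.20 for 2W- against mono-PSCs.

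The genes whose log2 CPM followed each member most closely over the 12 libraries were listed from 8700 genes as a description, since the libraries fall into 3 cultures. For Il1rl1 these were Psrc1 (Pearson r = 0.980), Ccl7 (0.979) and Ccl2 (0.979). Il1rap was followed by Ell2 (0.919), Slc39a14 (0.911) and Sod3 (0.908), and Il1r1 by Cpne8 (0.901), Tpm1 (0.896) and Megf10 (0.882). The closest to Il1rn were Onecut2 (0.971), Clu (0.968) and Thbs2 (0.963), and the closest to Il18bp were Ctdp1 (0.940), Nop9 (0.905) and Hivep1 (0.899). For the low ligand genes the closest were Birc2 (0.888), Exoc3l4 (0.864) and Cul1 (0.834) with Il33, and Zfp644 (0.892), Cpeb1 (0.861) and Clasrp (0.852) with Il18.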

How the data were processed

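RNA of sorted PSCs (4 libraries per culture, 12 in all) had been sequenced with the QuantSeq 3′ FWD kit. The authors checked reads with FastQC, trimmed and aligned them to GRCm38 with STAR, and assigned them to Ensembl release 75 genes with featureCounts. The deposited values are raw counts, although the methods call them normalised. No molecular identifiers or strand setting are given in the sources used here, so PCR copies and reads of overlapping antisense genes may be included, and intervals cover counting error only. The most abundant gene, Gm26924, took 10.1 to 17.9% of counts.

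Counts were scaled by TMM and tested with edgeR 4.0.16 (R 4.3.3; filterByExpr, glmQLFit and glmQLFTest) on the 8 libraries of each pair of cultures, without a replicate block, and p-values were adjusted by Benjamini-Hochberg over all genes tested. The code for the edgeR and DESeq2 fits was tested on simulated data. Single levels were also compared by two-sided exact permutation tests of mean CPM. Alternatives were DESeq2 1.42.0, DESeq2 size factors, other count filters, 1 fit of all libraries, a replicate block, library sizes without Gm26924 and mitochondrial rRNA, and leaving out each library.

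The members, the gene lists and the tests were chosen with earlier results of these data known. All members were named; of other lists, at most the 4 called genes of lowest p per list and comparison were named, plus every other family gene with a count, and the 3 genes of highest Pearson r with each member, among genes with a mean log2 CPM of at least 3. Genes beyond this rule (Krt18, Casp1, Pycard, Lyz1, Emr1, epithelial markers at 0, response genes that passed the filter through 3W-PSCs) were chosen after their values were seen. Gene positions are from GENCODE release M21 and promoters from RefSeq.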

Additional observations from a re-analysis of the deposited data

Results flagged for a closer look

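In 6 of the 22 sets of 4 libraries with any count of a member, 1 library lay far from the other 3 by Dixon's criterion, which chance alone meets in about 1 of 20 sets. For Il1rn in mono-PSCs a single read among 4 libraries meets it by construction. Il1r1 reached 39.3 CPM in library 2 of the 2W-PSCs, the library that stood apart over all genes. Il1rn had its only mono-PSC count in library 2, at 0.198 CPM, and reached 29.6 CPM in library 4 of the 3W-PSCs, the library with the most epithelial and macrophage marker reads of its culture. Il33 was lowest in library 1 of the mono-PSCs, at 0.522 CPM. Il18 was highest in library 1 of the 2W-PSCs, at 6.73 CPM. Il18bp was highest in library 4 of the mono-PSCs, at 1.80 CPM.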

How the results depend on the processing

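The called increases of Il1rl1 and Il1rap in 3W-PSCs over both other cultures, of Il1rn in both co-cultures and of Il18bp over mono-PSCs were kept by every fit that could test them. Demanding at least 10 counts in every library leaves some of these genes untested, and the members called were then 1 for 3W- against 2W-PSCs, 2 for 3W- against mono-PSCs and 0 for 2W- against mono-PSCs. For 2W- against mono-PSCs, 2 members were called with all 12 libraries in 1 fit, with the replicate block and with DESeq2, where Il1r1 joined Il1rn. With DESeq2, 3 members were called for 3W- against 2W-PSCs, Il18bp being added.

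The labels do not say what a replicate number marks. Correlations of same-numbered libraries' deviations were -0.0476 to 0.155 between 3W- and 2W-PSCs and 0.0026 to 0.107 between 3W- and mono-PSCs. Between 2W- and mono-PSCs they were higher, at 0.338, 0.259, 0.211 and 0.0990 for replicates 1 to 4. In that comparison 3 of 4 libraries correlated best with their own number. The replicate block lowered all genes called for 3W- against 2W-PSCs from 1230 to 752, and the calls of Mapkapk2 and Capn2 were lost (adjusted p = 0.0895 and 0.0893). Leaving out a library gave 497 (without 3W library 2) to 2107 (without 2W library 2) genes there. For 2W- against mono-PSCs, 111 genes were called, 61 to 233 without a library, 177 without the count filter, 57 with at least 10 counts in every library, 262 with all libraries in 1 fit and 275 with DESeq2. The cause of these shifts was not tested.

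Uncalled differences changed sign when a library was left out. The log2 fold change ranged from -0.36 to 0.24 for Il1rn and from -0.14 to 0.82 for Il18 between 3W- and 2W-PSCs, and between 2W- and mono-PSCs from -0.37 to 0.077 for Il1rap, from -0.55 to 0.56 for Il1rl1 and from -0.093 to 0.62 for Il33. Mean Il1rn differed by 0.697 CPM between 3W- and 2W-PSCs without TMM scaling, and by -0.47 CPM with it. Of 715 alternative values of single genes, 674 kept direction and call, 12 changed sign, 22 lost a call and 7 gained one; of 90 alternative counts of calls, 22 moved by over 1.5 times.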
